A study of Rattus norvegicus with 30 samples.

Results

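The comparison described here is 3 uM methapyrilene against the vehicle dimethyl sulfoxide (DMSO) after 48 h in rat hepatocytes. Its arrays were chosen by their labels alone: 5 arrays labelled as methapyrilene HCl, 3 uM and 48 h, and 5 labelled as DMSO, 1% and 48 h, which are 10 of the 30 arrays of the series. The other 20 arrays carry DMSO, 3 uM and 100 uM at 24 h and 100 uM at 48 h, again 5 for each group. All 30 samples were frozen male Sprague Dawley hepatocytes bought from a supplier, thawed, plated on collagen, overlaid with Matrigel and dosed on day 3 of culture, so the DMSO and the treated groups share strain, sex, matrix and day of dosing. Each sample is 1 well. The labels call the wells of a group biological replicates of independent cultures but name no animal, donor or lot. The spread between samples is a spread between wells, and whether it also holds a spread between animals is not known. The labels give no DMSO share for the treated wells, and the protocol ascribes the 1% to concentrated dosing solutions, so the final share of DMSO in the medium is not clear. RNA was hybridised to a whole-genome rat expression array, and each value is the linear-scale signal of a probe set. After the filter on dim probe sets 10222 genes were tested.

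Methapyrilene is an antihistamine that blocks the histamine H1 receptor and was withdrawn because it causes liver tumours in rats. Hepatocytes break down drugs with cytochrome P450 enzymes, conjugating enzymes and transporters. The genes Cyp1a1 and Cyp1a2 encode P450 enzymes that oxidise planar aromatic compounds, and they are classic targets of the aryl hydrocarbon receptor (AhR), a ligand-activated transcription factor that binds DNA with its partner Arnt.

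The cells on the 10 arrays carried hepatocyte RNA. Of the 10 hepatocyte markers on the array 0 lay below the array median on all 10 arrays, and the summed signal of the list ranged from 403702 to 533141 at 3 uM and from 433362 to 509024 in DMSO. Of the markers of other liver cells, 9 of 20 Kupffer cell and leukocyte genes on the array lay below the array median on all 10 arrays, Ptprc and Adgre1 among them, as did 7 of 10 endothelial genes, 9 of 15 stellate cell and fibroblast genes and 5 of 8 cholangiocyte genes. Other members passed the filter: 10 Kupffer cell and leukocyte genes, with Cd14 and Lyz2 the brightest, and 3 cholangiocyte genes, with Epcam and Anxa4 the brightest. The summed signal of the cholangiocyte list ranged from 21776 to 24190 at 3 uM and from 22098 to 23312 in DMSO. The summed signal of the stellate and fibroblast list ranged from 4242 to 6288 at 3 uM and from 4013 to 4704 in DMSO, and that of the Kupffer and leukocyte list from 20871 to 24065 and from 21661 to 24526; the part of these cells in the results below was not tested. The ratio of 3' to 5' beta-actin probe sets, a measure of RNA integrity, ranged from 2.34 to 2.95 at 3 uM and from 2.44 to 2.79 in DMSO, a log2 difference of 0.021 (exact two-sided permutation test, p = 0.762, n = 5 and 5). No marker of any of these lists was called at 3 uM and 48 h.

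Few genes differed between 3 uM and DMSO at 48 h. Cyp1a2 and Cyp1a1 fell, and Rrp9 and Ift52 rose. These 4 genes are 0.0391% of the 10222 tested (limma, Benjamini-Hochberg adjusted p under 0.05), 0.0196% in each direction. At an unadjusted p under 0.05 there were 521 genes, 5.1% of those tested. In 147 genes, or 1.44%, the 5 treated arrays lay wholly to one side of the 5 DMSO arrays, 69 of them (0.675%) higher at 3 uM and 78 (0.763%) lower.

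The arrays limited how small a change could be seen. The median standard error of a log2 fold change was 0.11 and the median 95% interval reached 0.23 to either side. For 8535 genes, or 83.5%, the whole 95% interval lay within a 1.5-fold change in either direction, and for 9783 genes, or 95.7%, within a 2-fold change. Within 1.2-fold it lay for 37.9% of genes. The median log2 fold change over all genes was 0.0047 and the median absolute value was 0.08, against 0.20 for 100 uM at 48 h on the same scale.

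**Figure D1:**
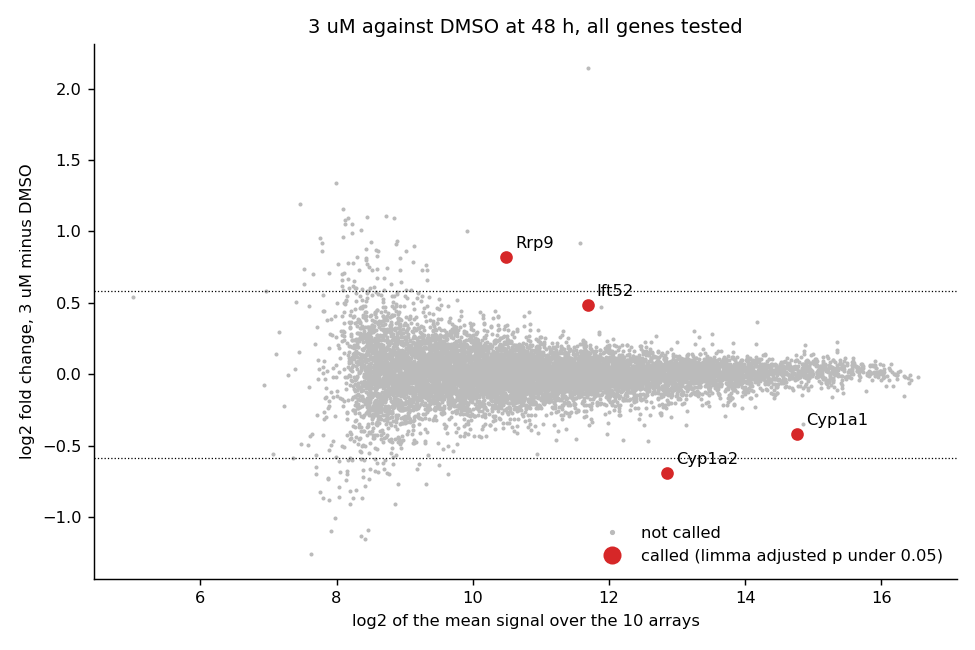
Each dot is 1 of 10222 genes, with the log2 of its mean signal over the 10 arrays on the horizontal axis and the log2 fold change of 3 uM over DMSO at 48 h on the vertical axis; dotted lines mark 1.5-fold. The 4 red dots are the called genes, which lie at -0.69 (Cyp1a2), -0.42 (Cyp1a1), 0.82 (Rrp9) and 0.49 (Ift52), while many dim genes on the left lie farther from 0 without a call.

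The gene with the lowest p was Cyp1a2, which encodes the liver P450 that metabolises caffeine and aromatic amines. In DMSO its signal was 8837, 8907, 8361, 8965 and 10527 on replicates 1 to 5. With 3 uM methapyrilene it was 5659, 6120, 5509, 5499 and 5417. The groups did not overlap: the highest treated well stood below the lowest DMSO well. The mean fell from 9119 ± 823 to 5641 ± 282 (SD, n = 5 each), a log2 change of -0.69 ± 0.096 (SE), or 1.61-fold lower, with a 95% interval from -0.89 to -0.49 (limma, Benjamini-Hochberg adjusted p = 0.000362). The call held when any 1 of the 10 arrays was left out. In RNA from whole wells, fewer cells that express a gene and less of its RNA per cell cannot be told apart.

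The promoter of Cyp1a2 is shown because this gene carried the clearest difference. It is taken from RefSeq on the rat build GRCr8, chr8:66978150-66978399 on the minus strand, and runs 5′ to 3′ over the 250 bases before the annotated start site.

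Cyp1a2: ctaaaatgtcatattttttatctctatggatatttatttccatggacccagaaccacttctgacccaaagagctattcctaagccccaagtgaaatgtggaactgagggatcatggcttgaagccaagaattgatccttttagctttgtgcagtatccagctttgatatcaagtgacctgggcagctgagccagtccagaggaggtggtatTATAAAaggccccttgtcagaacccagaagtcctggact

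The capitals mark TATAAA, the TATA box, at positions -39 to -34 from the start site, a motif added to the search after the promoters had been read and present on either strand in 12.9% of 33469 rat promoters of this length. The letters GCGTG, the core that AhR and Arnt bind, are not in this window on either strand, which says only that these letters are not in these 250 bases. GCGTG is present in 25.9% of the promoters.

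Cyp1a1 is the P450 gene best known as a marker of AhR activity. Its DMSO signals were 30920, 31278, 31343, 29929 and 35272, and its signals at 3 uM were 22534, 23777, 23611, 24351 and 24546. Every treated well again lay below every DMSO well, and the DMSO well of replicate 5 stood above its group for both P450 genes. The mean fell from 31748 ± 2049 to 23764 ± 789 (SD, n = 5 each), a log2 change of -0.42 ± 0.080 (SE), or 1.33-fold lower, with a 95% interval from -0.58 to -0.25 (limma, Benjamini-Hochberg adjusted p = 0.0309). That call was close to the threshold. Leaving out any 1 array other than DMSO replicate 4 raised the adjusted p to between 0.0608 and 0.195, with log2 changes from -0.43 to -0.38, and the highest p came without DMSO replicate 5. In the RefSeq gene order Cyp1a2 and Cyp1a1 lie next to each other on chromosome 8, with 0 annotated genes between them.

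**Figure D2:**
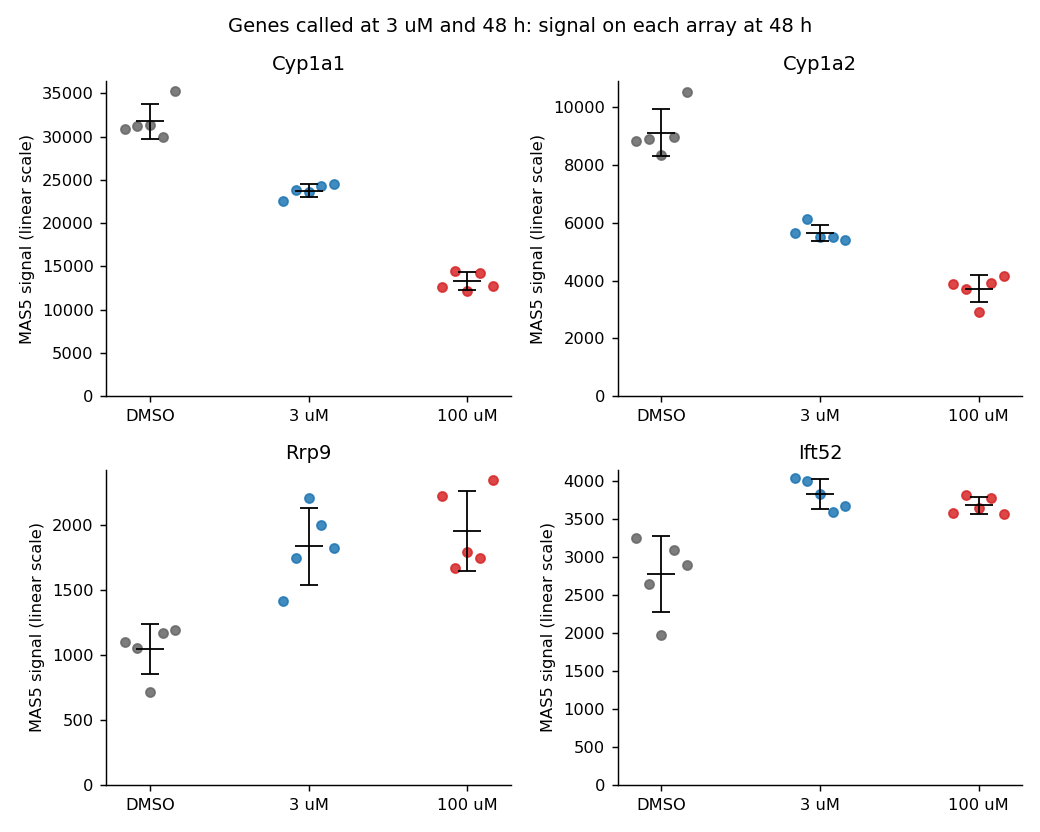
MAS5 signal on a linear scale, 1 dot per array, for the 4 called genes in the 5 DMSO, 5 3 uM and 5 100 uM arrays at 48 h; horizontal bars are means and whiskers are SD. For Cyp1a1 and Cyp1a2 the 3 uM wells lie between the DMSO and the 100 uM wells, while for Rrp9 and Ift52 the 3 uM and 100 uM wells cover overlapping ranges above DMSO.

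The other AhR target genes were not called. Of 9 genes listed, 5 were tested, and the 2 called among them were both lower, beside 0.0196% of all genes tested that were called lower. The list's median was -0.18, against 0.0047 over all genes tested. With 5 genes this median is the value of the single gene Cyp1b1, which was not called, so it does not show a shift of the list. Cyp1b1, a P450 of the same family found mainly outside hepatocytes, gave 683, 545, 657, 596 and 765 in DMSO and 456, 449, 588, 672 and 729 at 3 uM. These wells overlapped, and the log2 fold change was -0.18 ± 0.172 (95% interval -0.53 to 0.17, limma adjusted p = 0.997). Tiparp encodes an ADP-ribosyltransferase that feeds back on AhR, and it gave a log2 fold change of 0.10 ± 0.082 (95% interval -0.07 to 0.26, limma adjusted p = 0.997). Nqo1, a quinone reductase driven by both AhR and NRF2, gave 33531, 32955, 31737, 30913 and 30818 in DMSO and 31737, 32226, 30467, 28747 and 26968 at 3 uM. Its wells overlapped as well, with a log2 fold change of -0.09 ± 0.060 (95% interval -0.22 to 0.03, limma adjusted p = 0.979). The probe sets of Ahr itself, Arnt, the repressor Ahrr and the aldehyde dehydrogenase Aldh3a1 lay above the array median on 0 of the 10 arrays and were not tested.

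The same dose had been applied to separate wells for 24 h, with 5 DMSO arrays of that time. For Cyp1a1 the 24 h DMSO wells gave 31866, 30914, 28009, 27579 and 32243, and the 3 uM wells gave 17498, 16900, 16719, 21176 and 25200. The wells did not overlap, and the log2 fold change was -0.64 ± 0.080 (limma adjusted p = 3.27e-05). For Cyp1a2 the 24 h DMSO wells gave 19077, 18968, 15830, 14466 and 15353, and the 3 uM wells gave 11799, 10448, 10700, 12608 and 15692. Here replicate 5 at 3 uM lay above 2 of the DMSO wells, and the log2 fold change was -0.46 ± 0.096 (limma adjusted p = 0.00829).

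In the 24 h group the 3 uM replicates 1, 2 and 3 stood apart, with beta-actin 3' to 5' ratios of 3.93, 5.10 and 5.30, and for both P450 genes replicates 4 and 5 were the highest of their group. Without those 3 arrays the 24 h changes were -0.38 ± 0.079 for Cyp1a1 (limma adjusted p = 0.0578) and -0.24 ± 0.116 for Cyp1a2 (limma adjusted p = 0.521), from the 2 arrays left. The change of the 3 uM effect from 24 to 48 h, tested as a difference of differences, was 0.23 ± 0.113 for Cyp1a1 (95% interval -0.0038 to 0.46, limma adjusted p = 0.411). For Cyp1a2 it was -0.23 ± 0.136 (95% interval -0.51 to 0.04, limma adjusted p = 0.488). A difference between the times was thus not shown for either gene. Without the 3 arrays that stood apart the change was -0.04 ± 0.099 for Cyp1a1, which turns its direction (limma adjusted p = 0.989), and -0.45 ± 0.145 for Cyp1a2 (limma adjusted p = 0.729). The DMSO level of Cyp1a2 itself was 16739 ± 2142 at 24 h and 9119 ± 823 at 48 h, while that of Cyp1a1 was 30122 ± 2185 and 31748 ± 2049 (SD, n = 5 each).

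**Figure D3:**
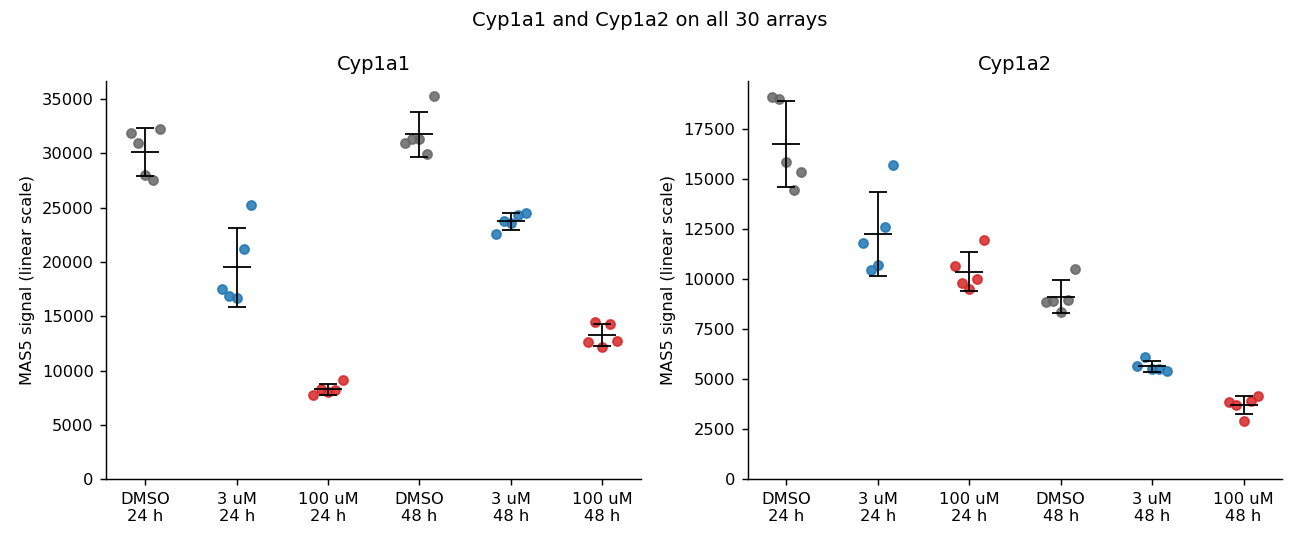
MAS5 signal of Cyp1a1 and Cyp1a2 on all 30 arrays by dose and time, 1 dot per array, with means and SD. At both times the mean falls from DMSO to 3 uM to 100 uM, and the 24 h wells at 3 uM spread more widely (SD 3667 for Cyp1a1) than the 48 h wells (SD 789).

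Across all genes 431 were called at 3 uM and 24 h, 4.22% of those tested, 306 (2.99%) higher and 125 (1.22%) lower. Without the 3 arrays that stood apart, which leaves 2 treated arrays, 4 genes were called, 0 higher and 4 lower. With arrays centred on their medians it was 248, 225 higher and 23 lower. Of the 431, 2 were also called at 48 h, Cyp1a1 and Cyp1a2, which is 0.464% of the 24 h calls and 50% of the 48 h calls. Of the 24 h calls 293, or 68.0%, had the same sign at 48 h, and their median log2 fold change at 48 h was 0.03 for the 306 that were higher at 24 h and -0.06 for the 125 that were lower. The share of all genes with the same sign at both times is not given beside it, so this share does not show that the 24 h effect lasted. The change of the effect from 24 to 48 h passed the test in 0 genes (limma, adjusted p under 0.05), with 1256 genes, or 12.3%, at an unadjusted p under 0.05.

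The strongest rise among the called genes was that of Rrp9, which encodes a protein of the U3 small nucleolar ribonucleoprotein, the particle that processes the precursor of 18S ribosomal RNA. Its DMSO signals were 1103, 1051, 715, 1174 and 1194, and its signals at 3 uM were 1416, 1746, 2207, 2003 and 1824. Every treated well lay above every DMSO well, with DMSO replicate 3 the lowest of all. The mean rose from 1047 ± 194 to 1839 ± 296 (SD, n = 5 each), a log2 change of 0.82 ± 0.136 (SE), or 1.77-fold, with a 95% interval from 0.54 to 1.10 (limma, Benjamini-Hochberg adjusted p = 0.00491). Leaving out any 1 of the 10 arrays kept the call. With only these 10 arrays in the fit the adjusted p was 0.0718.

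The promoter of Rrp9 is shown because, unlike that of Cyp1a2, its window holds the AhR core. It is RefSeq sequence on GRCr8, chr8:115995930-115996179 on the plus strand, the 250 bases before the start site, 5′ to 3′.

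Rrp9: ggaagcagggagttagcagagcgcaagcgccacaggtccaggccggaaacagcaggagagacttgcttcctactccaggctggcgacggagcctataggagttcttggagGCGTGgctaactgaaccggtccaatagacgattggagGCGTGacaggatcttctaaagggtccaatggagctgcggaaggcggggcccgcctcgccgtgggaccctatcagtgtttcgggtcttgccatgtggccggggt

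The capitals mark GCGTG at positions -140 to -136 and -103 to -99. The matches do not overlap each other, and the motif is found in 25.9% of the promoters, and its presence here is a description of the sequence, with no measure of binding. The letters of an E-box (CACGTG), which 5.59% of promoters hold, are not in the window.

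At 24 h Rrp9 showed no such difference between the groups: DMSO wells gave 1437, 1543, 1299, 1246 and 1373, and 3 uM wells gave 1738, 1235, 1524, 1148 and 1431. The log2 fold change there was 0.03 ± 0.136 (limma adjusted p = 0.94), and the change from 24 to 48 h was 0.79 ± 0.193 (95% interval 0.40 to 1.19, limma adjusted p = 0.242). This change did not pass the test. It contains the 48 h difference by which Rrp9 was called, so the choice of the gene favours an interval away from 0. The mean in DMSO was 1379 ± 116 at 24 h and 1047 ± 194 at 48 h. Rrp9 belongs to a list of 55 genes of ribosome biogenesis, of which 54 were tested. Of these, 1 was called higher, Rrp9 itself, and 0 lower, beside 0.0196% of all genes in each direction, with a list median of 0.05 against 0.0047 over all genes and the 95% interval within 1.5-fold for 51. The brightest members were Ncl, the nucleolar protein nucleolin, at 28662 ± 2058 against 28554 ± 1016, and Nop10, a subunit of the H/ACA particle, at 21938 ± 2428 against 22382 ± 792 (SD, n = 5 each). Neither passed the test (limma adjusted p = 1 for both).

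Ift52 encodes a subunit of the intraflagellar transport complex that builds cilia. Its DMSO signals were 3251, 2648, 1978, 3095 and 2905, and its signals at 3 uM were 4051, 4009, 3834, 3599 and 3670. The groups did not overlap, and DMSO replicate 3 was the lowest well, as it was for Rrp9. The mean rose from 2775 ± 499 to 3832 ± 200 (SD, n = 5 each), a log2 change of 0.49 ± 0.094 (SE), or 1.40-fold, with a 95% interval from 0.29 to 0.68 (limma, Benjamini-Hochberg adjusted p = 0.0309). The call was lost in 8 of 10 fits with 1 array left out, with adjusted p from 0.0608 to 0.152, and was kept only without DMSO replicate 1 or 4. Without DMSO replicate 3 the log2 change was 0.37. It was also lost with only these 10 arrays in the fit (adjusted p = 0.305) and with the 15 arrays of 48 h (0.111).

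At 24 h the Ift52 signals were 3113, 2802, 3389, 3332 and 3748 in DMSO and 3375, 3947, 3582, 3113 and 3453 at 3 uM, which overlapped (log2 fold change 0.09 ± 0.094, limma adjusted p = 0.587). These 24 h DMSO wells also overlap the 48 h treated wells. The change from 24 to 48 h was 0.39 ± 0.133 (95% interval 0.12 to 0.66, limma adjusted p = 0.314). It did not pass the test, and it too contains the 48 h difference by which the gene was called.

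The promoter of Ift52 is given for comparison with the other called genes. It is RefSeq sequence on GRCr8, chr3:172091775-172092024 on the plus strand, the 250 bases before the start site, 5′ to 3′, with no capitals because none of the motifs searched is in it.

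Ift52: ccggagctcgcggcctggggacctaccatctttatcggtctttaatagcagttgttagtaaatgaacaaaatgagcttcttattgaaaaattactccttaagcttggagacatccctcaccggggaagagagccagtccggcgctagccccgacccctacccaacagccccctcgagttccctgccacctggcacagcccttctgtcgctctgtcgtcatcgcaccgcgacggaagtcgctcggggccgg

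The motifs searched on both strands in all 3 promoters, with the share of promoters that hold each, were GCGTG (25.9%), TATAAA (12.9%), TGACNNNGC of NRF2 (10.1%), CACGTG (5.59%), TGATGNAA of ATF4 (3.4%), TCACNCCAC of SREBP (0.974%), the PPAR element (0.0508%) and the DR4 element (0.00299%). Other than the matches given above, the 3 windows hold none of them.

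After these 4 genes, 5 more had an adjusted p below 0.25, and they were picked out after their values were seen. None passed the test. Dbr1, the enzyme that opens intron lariats, gave 1802, 1653, 1507, 1684 and 1603 in DMSO and 1416, 1209, 1327, 1350 and 1213 at 3 uM (log2 fold change -0.34 ± 0.073, limma adjusted p = 0.101). Cyp2d3, a drug-metabolising P450, gave 7685, 6726, 6866, 6896 and 7066 in DMSO and 6044, 5100, 5010, 4493 and 4942 at 3 uM (-0.47 ± 0.109, limma adjusted p = 0.21). C5, a complement component that hepatocytes secrete, gave 2641, 2858, 2758, 2556 and 3047 in DMSO and 1925, 1967, 1926, 2007 and 2259 at 3 uM (-0.46 ± 0.108, limma adjusted p = 0.216). All 3 genes had non-overlapping wells, as had Trim41, a ubiquitin ligase (0.42 ± 0.096, limma adjusted p = 0.21), and Egfr, the receptor of epidermal growth factor (-0.27 ± 0.065, limma adjusted p = 0.241). Over all genes tested 1.44% had wells without overlap. Genes chosen for a low p on these same arrays tend to have separate wells, so this adds no support.

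The highest and lowest estimates over all genes belonged to genes whose replicates scattered widely. Camk2g, a subunit of a calcium-dependent kinase, gave 403, 4321, 2399, 647 and 574 in DMSO and 4222, 6076, 3575, 6342 and 4457 at 3 uM. DMSO replicates 2 and 3 lay far above the other 3 wells, and replicate 2 lay within the treated range. Its log2 fold change was 2.14 ± 0.749 (95% interval 0.62 to 3.67, limma adjusted p = 0.871). Rbm24, an RNA-binding protein, gave 432, 134, 392, 248 and 126 in DMSO and 139, 25.6, 75.4, 283 and 118 at 3 uM, with overlapping wells and a log2 fold change of -1.26 ± 0.608 (limma adjusted p = 0.964).

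The 100 uM wells of the same time share the DMSO arrays with the 3 uM comparison, so the doses are set side by side and tested only against each other. At 100 uM 3415 genes were called against DMSO, 33.4% of those tested, 1933 (18.9%) higher and 1482 (14.5%) lower (1246 and 1544 with arrays centred on their medians). Between 100 uM and 3 uM directly, 2945 genes or 28.8% differed, 1656 (16.2%) higher and 1289 (12.6%) lower at 100 uM (1145 and 1163 with arrays centred on their medians).

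For the 4 called genes this direct contrast uses the same 3 uM arrays by which they were called. Cyp1a2 gave 3877, 3700, 2929, 3915 and 4148 at 100 uM, all below the 3 uM wells, and differed between the doses by -0.61 ± 0.096 (95% interval -0.81 to -0.42, limma adjusted p = 6.66e-06). Cyp1a1 gave 12668, 14486, 12204, 14286 and 12752, again below every 3 uM well, a difference of -0.84 ± 0.080 (95% interval -1.01 to -0.68, limma adjusted p = 3.84e-10). Against DMSO the 100 uM log2 fold changes were -1.30 for Cyp1a2 and -1.26 for Cyp1a1.

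For Rrp9 and Ift52 no difference between the doses was detected. Rrp9 gave 2228, 1670, 1793, 1749 and 2346 at 100 uM, which overlaps the 3 uM wells, and the doses differed by 0.09 ± 0.136 (95% interval -0.19 to 0.37, limma adjusted p = 0.676). Ift52 gave 3590, 3816, 3655, 3784 and 3571, also overlapping, with a difference of -0.06 ± 0.094 (95% interval -0.25 to 0.14, limma adjusted p = 0.715). Dbr1 was lower at 3 uM than at 100 uM, where it gave 1737, 1649, 1902, 1943 and 1903 (0.49 ± 0.073, limma adjusted p = 2.88e-06), while its 100 uM wells and DMSO wells overlapped. Dbr1 was picked out after its low 3 uM values were seen, and this contrast uses the same 3 uM arrays, so its p is not separate support. Against DMSO the gene was not called at 3 uM or at 100 uM (limma adjusted p = 0.101 and 0.127).

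The genes that moved most at 100 uM were looked at in the 3 uM wells: the 6 highest and the 6 lowest called genes whose 100 uM wells did not overlap DMSO. They were chosen by their 100 uM values, which are given as a description. None of the 12 was called at 3 uM, and in all 12 the 3 uM and DMSO wells overlapped. Over all genes tested 0.0391% were called at 3 uM and 1.44% had wells without overlap. At these shares 12 genes with 0 of either do not stand apart from all genes. Hamp, which encodes the iron hormone hepcidin, gave 1385, 1889, 1148, 1241 and 1544 in DMSO, 1349, 1865, 1708, 1959 and 1979 at 3 uM and 7107, 6457, 9201, 11027 and 9437 at 100 uM. Its log2 fold change at 3 uM was 0.31 ± 0.142 (95% interval 0.02 to 0.60, limma adjusted p = 0.964), against 2.58 at 100 uM. Cd68, a lysosomal membrane protein and macrophage marker, was 739 ± 105 in DMSO, 896 ± 161 at 3 uM and 2308 ± 260 at 100 uM (SD, n = 5 each), with 0.27 ± 0.122 at 3 uM (limma adjusted p = 0.96). Dnase2b, a lysosomal nuclease, gave 0.20 at 3 uM and 1.77 at 100 uM, Dennd5a, a regulator of vesicle traffic, 0.21 and 1.90, and Eno2, a glycolytic enolase, 0.12 and 1.80 as log2 fold changes.

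Among the lowest, Slc10a1, the transporter that takes up bile acids from blood, gave 5743, 4244, 5514, 5563 and 6183 in DMSO, 4721, 4464, 3585, 3580 and 3441 at 3 uM and 895, 909, 940, 846 and 743 at 100 uM. At 3 uM 2 treated wells lay above DMSO replicate 2, the lowest of its group, and the log2 fold change was -0.46 ± 0.128 (95% interval -0.72 to -0.20, limma adjusted p = 0.569). Ces1d, a carboxylesterase, gave -0.35 ± 0.136 at 3 uM (limma adjusted p = 0.909) and -2.77 at 100 uM. Akr1c1, an aldo-keto reductase, gave -0.42 ± 0.125 at 3 uM (limma adjusted p = 0.623) and -2.48 at 100 uM. Otc, a urea cycle enzyme, was 2363 ± 286 in DMSO, 1971 ± 458 at 3 uM and 453 ± 148 at 100 uM (SD, n = 5 each). Sult2a6, a sulfotransferase, gave -0.40 and -2.50, and Susd3 -0.54 and -2.78. Lama5 and Susd3 were dim in some wells, with 95% intervals at 3 uM from -0.57 to 1.33 and from -1.57 to 0.49.

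**Figure D4:**
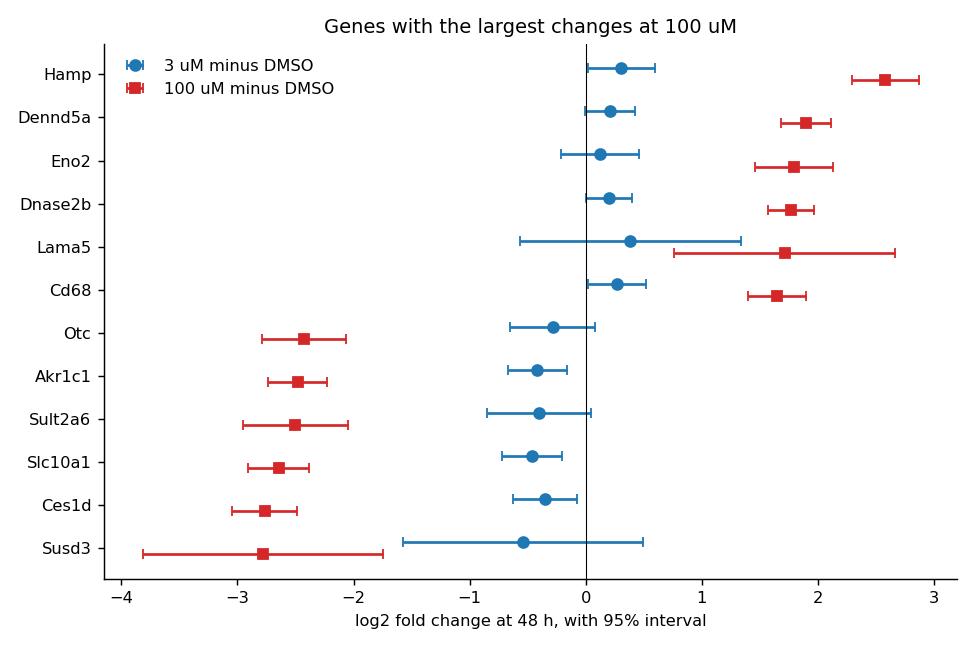
Log2 fold change against DMSO at 48 h with 95% interval for the 6 highest and 6 lowest genes at 100 uM, circles for 3 uM and squares for 100 uM, 5 arrays per group. At 3 uM the estimates lie between -0.54 (Susd3) and 0.38 (Lama5) and none was called, and at 100 uM they are at least 1.65 in size (Cd68), which is how the genes were chosen.

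Beyond single genes, 43 lists of genes by function were examined, and in 41 of them 0 members were called. Their medians at 3 uM ran from -0.18 (AhR targets, only 5 genes tested) to 0.06 (cytosolic ribosomal proteins), 19 above 0 and 24 below, beside 0.0047 over all genes. The lists held 1482 genes with the marker lists, of which 1163 were tested and 3 called, Cyp1a1, Cyp1a2 and Rrp9. This is a larger share than the 0.0391% called over all genes. The lists were chosen with earlier results of these data known, so the larger share is no separate support.

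Drug-metabolising genes outside the AhR list stayed without a call. Among 17 tested targets of CAR and PXR, the nuclear receptors that sense drugs, the median was -0.05 and all 17 had a 95% interval within 1.5-fold. The brightest were Cyp3a23-3a1, a major drug-oxidising P450, at 66542 ± 5804 against 70397 ± 4789 in DMSO, and Ugt2b1, a glucuronosyltransferase, at 33911 ± 5680 against 34249 ± 4846 (SD, n = 5 each). Of 23 other P450 genes 20 had an interval within 1.5-fold, with a median of -0.04 at 3 uM and -0.86 at 100 uM, where 17 were lower, beside 14.5% of all genes lower at that dose. The conjugating enzymes had a median of -0.04 over 35 genes at 3 uM, with Gstm1, a glutathione transferase, at 87667 ± 11761 against 87614 ± 5732. Its 3 uM wells gave 89623, 96727, 100508, 78734 and 72744. Gc, a bright gene of the plasma protein list, ran in the same order, at 95211, 103408, 108515, 86513 and 81073. How far such bright signals follow the array rather than the dose was not tested, which limits them as examples of their lists.

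Lists of liver metabolism are given at both doses, beside 0.0391% of all genes called at 3 uM and 14.5% called lower and 18.9% higher at 100 uM. At a share of 0.0391%, a list of these sizes with 0 calls at 3 uM does not stand apart from all genes. For 47 genes of amino acid catabolism the median was -0.05 at 3 uM and -0.63 at 100 uM, with 0 called at 3 uM and 39 lower at 100 uM. Bhmt, which remethylates homocysteine, was 53592 ± 4996 at 3 uM against 58114 ± 5077 in DMSO, a log2 fold change of -0.12, beside -2.13 at 100 uM. For 21 bile acid genes the medians were -0.07 and -0.78, with 0 called at 3 uM and 18 lower at 100 uM. Scp2, a sterol carrier, and Cyp27a1, which starts the alternative bile acid pathway, gave -0.01 and 0.01 at 3 uM. The urea cycle (11 genes), fatty acid oxidation (33), secreted plasma proteins (37) and acute phase genes (26) had medians of -0.02, -0.01, -0.06 and -0.0079 at 3 uM. At 100 uM 7, 20, 26 and 12 of their members were lower and 1, 1, 2 and 2 higher. Alb, which encodes albumin, was 79086 ± 15639 at 3 uM against 86647 ± 6374 in DMSO.

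Stress pathways also held 0 called genes at 3 uM, which is no different from the 0.0391% called over all genes. The NRF2 targets had 0 of 35 called and a median of 0.0089, and 34 had an interval within 1.5-fold. The ATF4 and integrated stress response list had 0 of 43 called, a median of 0.02 and 42 within 1.5-fold, with Atf4 itself, the transcription factor of that response, at 30523 ± 1951 against 30020 ± 1173. All 20 heat shock genes and all 32 endoplasmic reticulum chaperones had intervals within 1.5-fold, and Hspa5, the chaperone BiP, gave 0.07 ± 0.062 (limma adjusted p = 0.997). The 20 p53 targets had a median of 0.06 at 3 uM with 0 called and 0.24 at 100 uM with 10 higher and 1 lower, beside 18.9% and 14.5% of all genes.

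Genes of the cell's housekeeping machinery were not called either. All 39 proteasome genes and all 71 mitochondrial ribosomal proteins had intervals within 1.5-fold, with medians of 0.05 and 0.04, as had 67 of 68 nuclear genes of oxidative phosphorylation, with a median of 0.03. Of the 42 cytosolic ribosomal proteins 40 had a log2 fold change above 0, with a median of 0.06 and 0 called. No share of all genes above 0 stands beside this count, and other lists leaned the other way, such as the bile acid genes with 18 of 21 below 0. With arrays centred on their medians the median over all genes moved from 0.0047 to -0.025. The count thus does not show a shift of the ribosomal list. The cell cycle list was less well measured: 27 of 41 genes had an interval within 1.5-fold, and Pcna, the DNA polymerase clamp, was 11140 ± 800.5 against 10492 ± 526 (SD, n = 5 each).

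The histamine list holds receptors and enzymes of histamine and enzymes that clear monoamines. Of 12 genes, 6 were tested and 0 called, with a median of -0.09 at 3 uM and -0.44 at 100 uM. At 3 uM 1 of the log2 fold changes lay above 0 and 5 below, too few genes to read a direction from. The receptors Hrh1, Hrh2 and Hrh4 and the enzymes Hdc and Hnmt were not among the genes tested, so the list shows nothing about the drug's own target. Maob, the monoamine oxidase, was 7410 ± 609 at 3 uM against 8168 ± 277 in DMSO (log2 fold change -0.14 ± 0.071, limma adjusted p = 0.964), and Aldh2, which clears aldehydes, gave -0.03 ± 0.059 (limma adjusted p = 1).

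**Figure D5:**
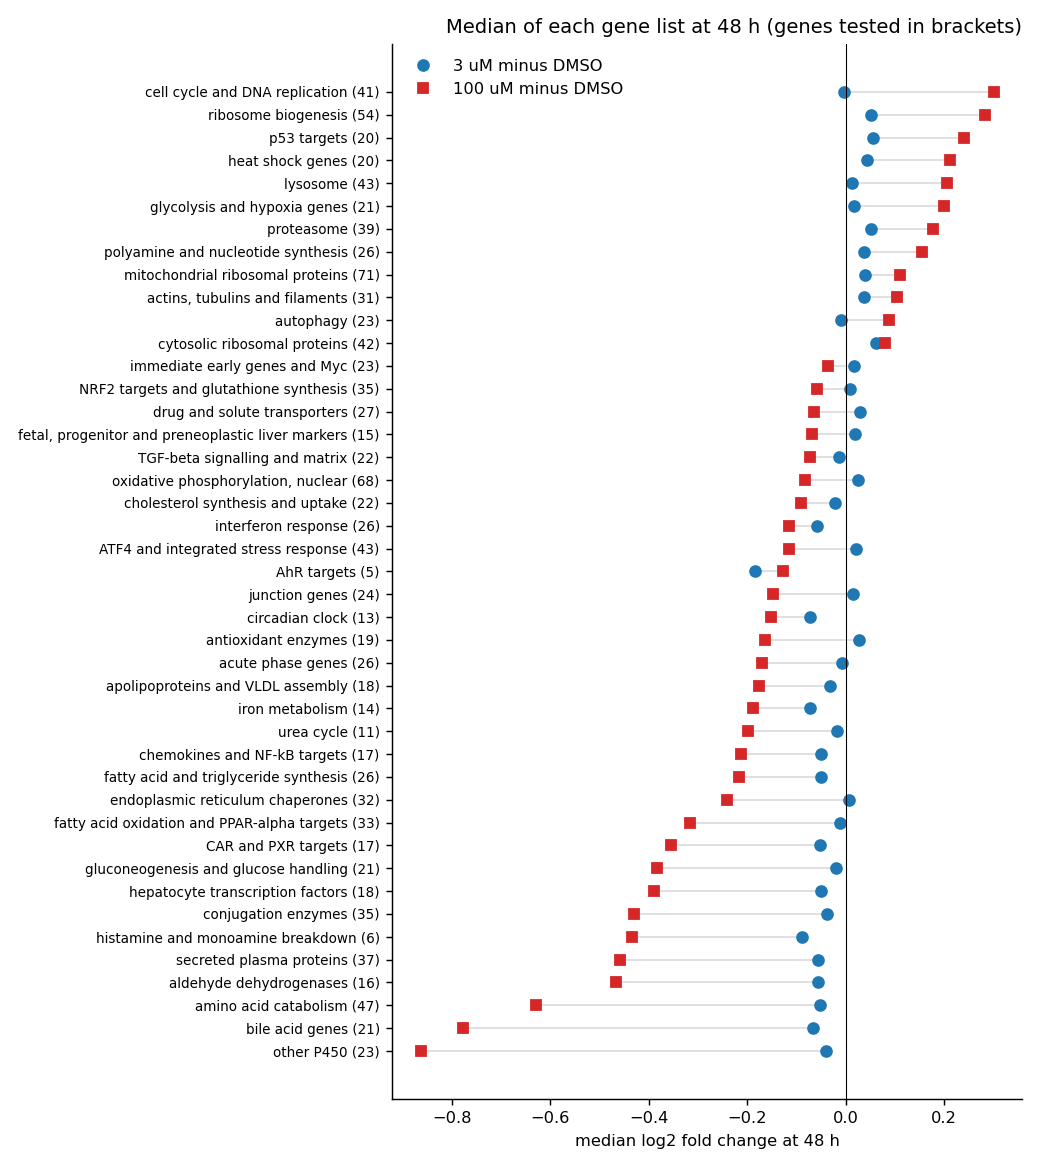
Median log2 fold change against DMSO at 48 h of each of the 43 function lists, circles for 3 uM and squares for 100 uM, with the number of genes tested in brackets; both doses share the DMSO arrays. The 3 uM medians lie between -0.18 and 0.06, and the 100 uM medians reach down to -0.86 (other P450).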

How the data were processed

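The deposited values are the intensity of each probe set, on a linear scale, which the authors obtained with MAS5, per the submitters' processing notes; its version and detection calls are not given in the sources used here. Per the labels' protocols Tri-Reagent and an RNeasy kit were used to extract the RNA, and biotin to label it. The 2% trimmed mean was 1501 on every array, so arrays had been scaled. The number of arrays limits the precision.

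Signals were log2 transformed without a pseudocount. Symbols came from the platform's annotation, updated to current rat symbols through gene identifiers: of 31099 probe sets, 20826 carried a single symbol, while 436 carried several, 9780 lacked one and 57 were controls and left out. A probe set was kept if it exceeded its array's median on at least 5 arrays, and a gene took its brightest probe set, which gave 10222 genes. The 6 group means were estimated together from the 30 arrays, leaving 24 residual degrees of freedom, with limma 3.58.1 in R 4.3.3, with a trended eBayes and Benjamini-Hochberg adjustment over all genes, called at adjusted p under 0.05. The method was tested on simulated data. Figures used Python 3.11.15 and matplotlib 3.10.9. Promoters were read for 3 of the 4 called genes from RefSeq.

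Named genes were called genes, up to 12 each way, with non-overlapping wells and a higher group above the array median, and from each list its called members, at most 4, or else its 2 brightest. Genes with adjusted p below 0.25, the AhR list, the genes with the highest and lowest estimates and the 12 genes named for their 100 uM values were added after their values were seen. The comparisons, members and gene lists were chosen with earlier results of these data known. Some lists hold older and current symbols of 1 gene. Replicates are wells of purchased frozen cells, so p-values measure the spread between wells. Alternatives covered scaling, filter, pseudocount, probe set choice, arrays fitted, array weights, the replicate block and leaving out each array.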

Additional observations from a re-analysis of the deposited data

Results flagged for a closer look

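In 52 groups of 5 arrays, over the genes with values by array and over array measures, the highest or lowest sample's gap to the nearest other was compared with Dixon's 95% critical value. It was exceeded in 7, and chance alone would exceed it in about 5% of groups. DMSO replicate 5 was high for both P450 genes, at 35272 for Cyp1a1, where the other 4 wells lay from 29929 to 31343, and at 10527 for Cyp1a2, where the others lay from 8361 to 8965. At 3 uM, C5 was high in replicate 5, at 2259 against 1925 to 2007 in the others, and Cd68 in the same well, at 1176 against 785 to 878. Tiparp was high in 3 uM replicate 3, at 3737 against 3167 to 3315, and Cd68 in DMSO replicate 3, at 920 against 655 to 726. The array median of DMSO replicate 1 was 381, below the 402 to 408 of the others. Not among the 7 was the array median of 3 uM replicate 5 at 48 h, at 471 against 376 to 411 in the others. The root mean square deviation of that array from its group was 0.281, against 0.219 to 0.247 in the others. It is the array on which C5 and Cd68 were high, and whether these values follow the array rather than the dose was not tested.

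Probe sets without exactly 1 gene symbol stood outside the gene comparison. Of 4025 that passed the filter, 1 was called at 3 uM and 48 h (limma, adjusted p = 0.0158), probe set 1377473_at, with a log2 fold change of -1.77 ± 0.318. It gave 617, 745, 624, 618 and 512 in DMSO, 111, 235, 496, 108 and 142 at 3 uM and 496, 694, 522, 365 and 602 at 100 uM. At 3 uM 4 of its 5 values lay below the array median, and replicate 3 lay near the DMSO wells.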

How the results depend on the processing

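The 4 calls became 2 with arrays centred on their medians (Cyp1a2 and Rrp9), 5 with quantile scaling and 3 with the replicate block of array runs (Cyp1a1, Cyp1a2 and Rrp9), and lay between 2 and 5 in all settings tried. With each of the 10 arrays left out in turn they ranged from 2 to 4, and were 2 without any one of the arrays other than DMSO replicates 1 and 4. Cyp1a2 was called in all 23 alternatives (-0.72 to -0.64), Rrp9 in 22 (0.69 to 0.91), Cyp1a1 in 12 (-0.45 to -0.38, lost also with median centring, adjusted p = 0.0625, and without a trend, 0.0926) and Ift52 in 10 (0.37 to 0.55, lost also with median centring, 0.241, and without a trend, 0.0926); 0 changed sign. Other genes called in some settings were C5 and Dbr1 in 2 each and Cyp2d3, Prpf4b and Zwint in 1 each. The 431 calls at 24 h became 248 with median centring and 4 without the 3 arrays that stood apart, a choice made after seeing the data, and 436 with the replicate block, which changed no other count by over 1.5 times. Ift52 was not called with that block (limma adjusted p = 0.0956). A run is 6 consecutive array numbers, 1 array per group, and is known only from these numbers. Between the 3 uM and DMSO arrays of 48 h of the same run, deviations over all genes correlated between -0.060 and 0.029. The other arrays of a run were not compared in this way, and an effect of the run was not tested. The actin ratio's log2 difference of 0.021 became -0.014 with GAPDH, p = 0.333 (exact permutation test, n = 5 and 5, smallest p possible 0.00794). Of 1008 list medians recomputed, 994 moved by less than the spread between arrays. The number of arrays limits the precision, dim genes had the widest intervals, and the causes of these changes were not tested.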
